A study of Mus musculus with 30 samples.

Results

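The genes described are 10 members of the pathway that displays peptides from inside the cell on major histocompatibility complex (MHC) class I molecules. They are the immunoproteasome subunits Psmb8, Psmb9 and Psmb10, the peptide transport and loading genes Tap1, Tap2 and Tapbp, and the class I molecules H2-K1, H2-D1, H2-T23 and B2m. They were chosen by name as parts of this pathway, with earlier results of these data known. Of the 10, 9 had a probe set (the array's group of short probes for a transcript) annotated to that gene alone, and all 9 passed the filter on low intensity, among 15726 genes tested. The remaining one, H2-T23, was measured only by probe sets that it shares with the pseudogene H2-T-ps, and is given as that shared probe set.

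All cells were astrocytes sorted by fluorescence from the brains of young adult male mice carrying the Aldh1l1-eGFP transgene on a Swiss Webster background, an outbred stock, so the reporter marks cells in which the Aldh1l1 promoter is active. MCAO mice had 1 hour of transient middle cerebral artery occlusion, a model of stroke, and sham mice had the surgery without occlusion. Their astrocytes were taken at 1 day (5 MCAO and 4 sham arrays), 3 days (3 and 3) and 7 days (3 and 3). LPS mice received 5 mg/kg of Escherichia coli lipopolysaccharide into the abdominal cavity and saline mice endotoxin-free saline, with astrocytes taken after 1 day (5 LPS and 4 saline arrays). That makes 30 arrays in 8 groups, each made from about 20 ng of RNA. Replicates are described as biological, but whether every array stands for its own mouse is not said. The p-values therefore cover the spread among arrays, which may be technical.

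Class I molecules report on the proteins a cell is making. Proteasomes cut cytosolic proteins into peptides, and after exposure to interferons the immunoproteasome subunits replace constitutive subunits and alter which peptides are made. The TAP transporter carries the peptides into the endoplasmic reticulum, where tapasin helps to load them onto a heavy chain paired with beta-2-microglobulin. CD8 T cells read the complex at the cell surface. Most resting brain cells hold little class I, and interferons raise most of the pathway together through factors that include NLRC5 and IRF proteins.

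**Figure D1:**
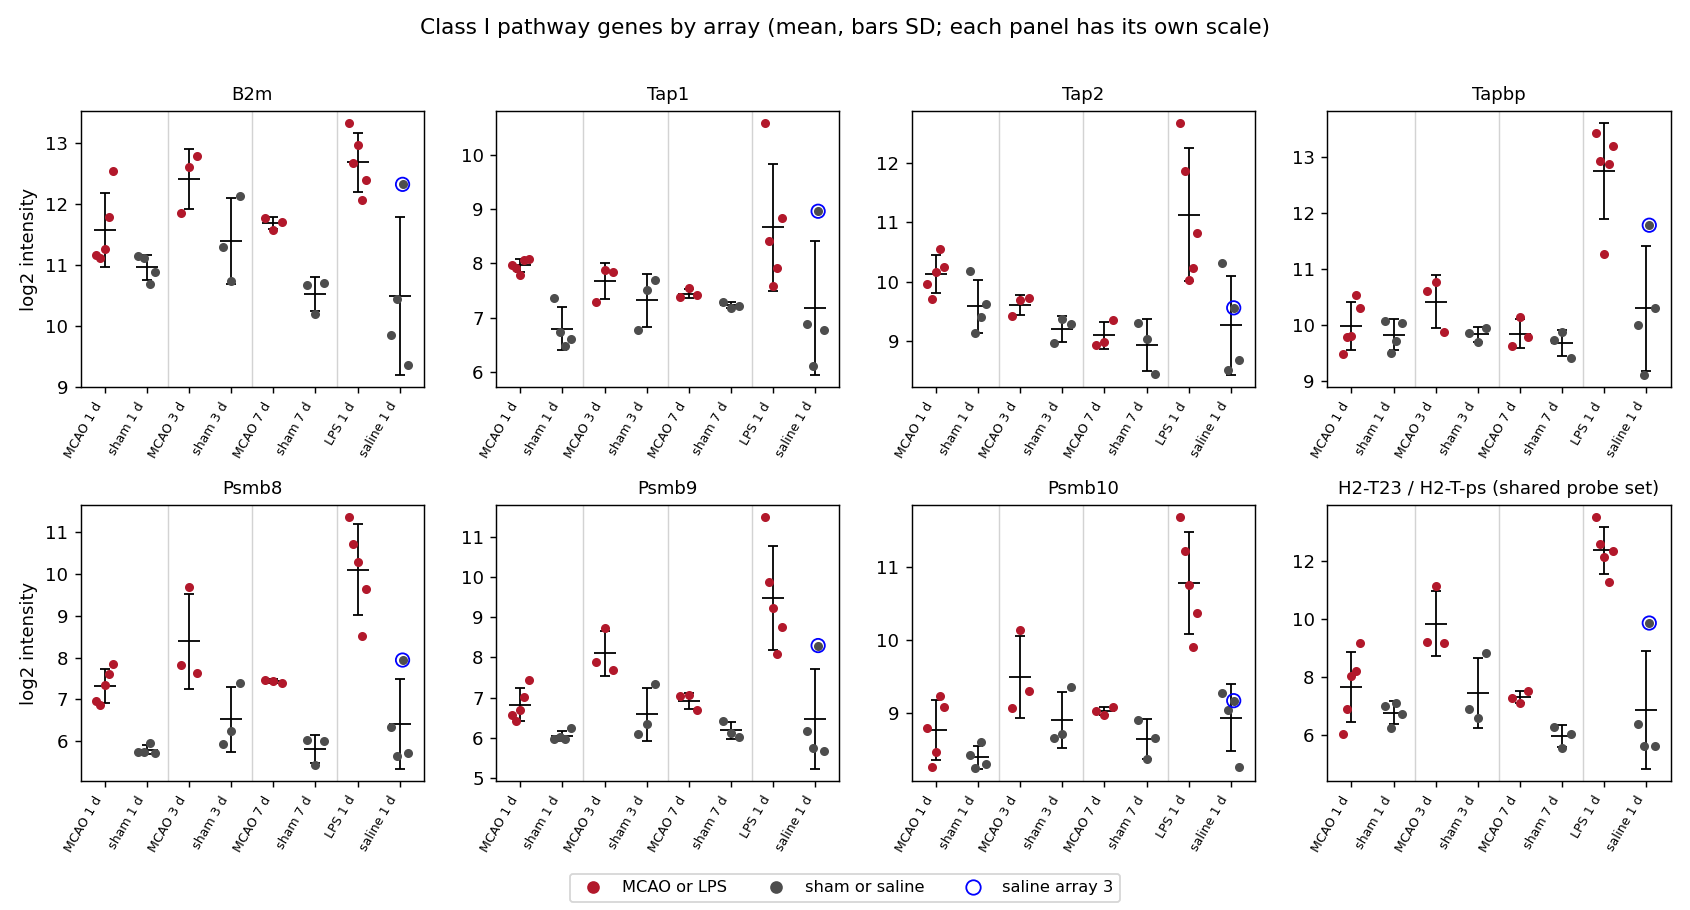
Log2 intensity of B2m, Tap1, Tap2, Tapbp, Psmb8, Psmb9, Psmb10 and the probe set shared by H2-T23 and H2-T-ps on each of the 30 arrays, by group, with MCAO or LPS to the left of sham or saline, and lines for the mean and SD. Saline array 3 (ringed in blue) lay above the other 3 saline arrays for B2m, Tap1, Tapbp, Psmb8, Psmb9 and the shared probe set.

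Several arrays stood apart, and this touches the results below. Saline array 3 had a mean log2 level over the 9 measured genes of 10.44, against 8.02 to 8.22 on the other 3 saline arrays, so LPS results are also given without it. Sham array 3 of day 3 stood at 9.74, against 8.14 and 8.23 on the other 2 sham arrays of that day. LPS array 5 had a median intensity of 94, against 68 to 73 on the other 29 arrays. It also had the lowest astrocyte marker sum of the LPS arrays (60729) and the highest sums for T and NK cells (1119) and for neutrophils and monocytes (977). Without it the 6 genes called after LPS were the same. The arrays also fell into 16 with a highest intensity of at least 31338 (bright) and 14 of at most 26595 (dim). All 1-day surgery arrays were bright and all 7-day arrays dim. The LPS group held 3 bright and 2 dim arrays, the saline group 2 and 2, and each 3-day group 1 and 2. No label names a batch. Among the LPS and saline arrays the numbers in the sample descriptions run with this split: the bright arrays carry 3, 4 and 6 (LPS) and 3 and 5 (saline), and the dim arrays 13 and 15 (LPS) and 14 and 16 (saline). What the numbers stand for is not said. Of 8 astrocyte markers 0 were under log2 5 on all arrays of any group. The summed linear intensity of the marker list was 60729 to 123430 on LPS arrays and 73555 to 110982 on saline arrays for astrocytes. For microglia and macrophages (10 markers) it was 563 to 750 on LPS arrays and 496 to 768 on saline arrays, with Itgam under log2 5 on all 9 arrays.

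All 9 genes, each on its probe set with the highest mean, had a positive log2 fold in each of the 4 comparisons with controls. Their median log2 fold was 0.77 for MCAO against sham at 1 day, 0.59 at 3 days, 0.74 at 7 days and 1.86 for LPS against saline. Over all 15726 genes the medians were -0.05, 0.01, -0.01 and 0.07. A gene was called, and is said to have risen or fallen, at a Benjamini-Hochberg adjusted p under 0.05 in limma, over all genes. After LPS 6 of the 9 rose and 0 fell, where 3.11% of all genes were called and 2.37% were called higher. After MCAO 1 of 9 rose at 1 day (Psmb8), where 12.7% of all genes were called, and 6.49% higher. At 3 days 0 of 9 were called in limma (3 had an unadjusted p under 0.05), where 0.674% of all genes were, 0.61% higher and 0.0636% lower. At 7 days 0 of 9 were called in limma (2 had an unadjusted p under 0.05), where 0.0254% of all genes were. The number of genes called among all genes itself moved with single arrays. At 3 days it was 106, and 3 to 15 without MCAO array 1 or 2 or sham array 1 or 2, 650 without MCAO array 3 and 314 without sham array 3. At 7 days it was 4, and 2 to 7 without 1 array. After LPS it was 489, and 225 without saline array 4, 307 without LPS array 1, 804 without LPS array 4 and 990 without LPS array 3. Expression in a bulk sample cannot tell more cells of a type from more RNA per cell.

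Arrays of the 2 groups did not overlap, with the treated group above, for 3 of the 9 genes at 1 day after MCAO, 3 at 3 days, 7 at 7 days and 2 after LPS. The same held for 12.1%, 5.74%, 9.65% and 1.88% of all genes, and 27.3%, 12.7%, 16.3% and 2.75% did not overlap in either direction. At 7 days the 7 genes were H2-K1, H2-D1, B2m, Tap1, Psmb8, Psmb9 and Psmb10. Each of these had all 3 MCAO arrays above all 3 sham arrays, although none was called.

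**Figure D2:**
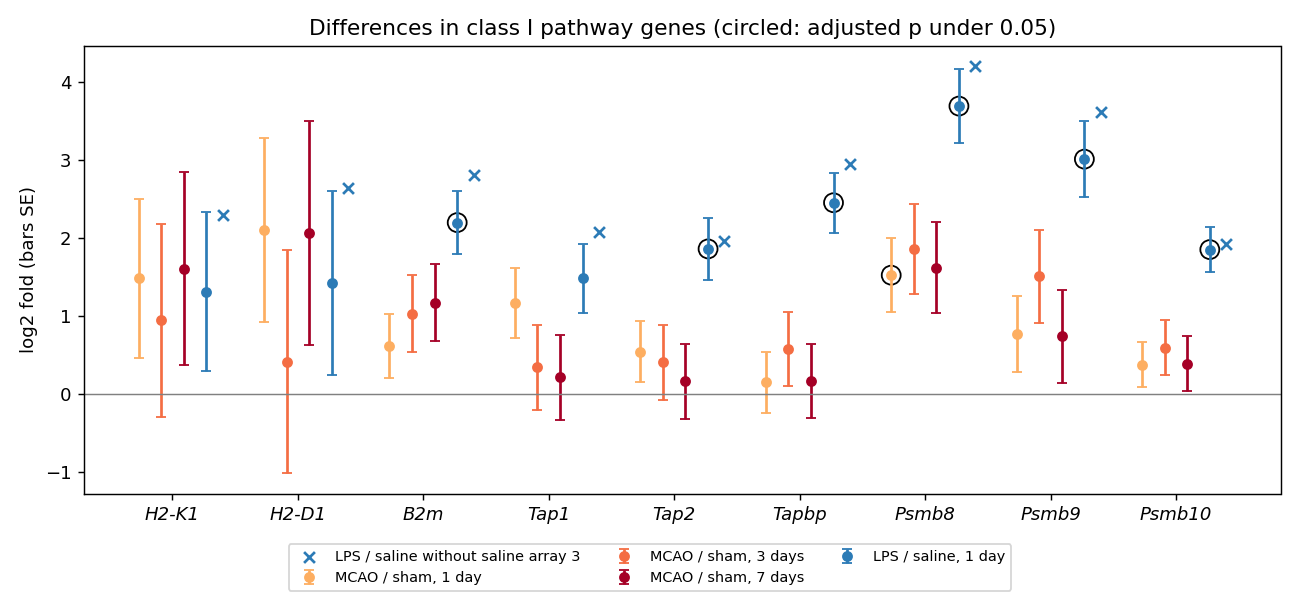
Log2 fold with its SE for the 9 measured genes in MCAO against sham at 1, 3 and 7 days and LPS against saline at 1 day, and, as crosses, LPS against saline without saline array 3. Black circles mark calls: 6 genes after LPS and Psmb8 at 1 day after MCAO.

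Promoters of class I genes are known for a module of X and Y boxes that NLRC5 acts through, and a region bound by interferon and kappaB factors. RefSeq (GRCm38.p6) windows of 250 bases before a start site were available for 9 of the 10 genes, with none for Tap2. For H2-K1 the window precedes a start that lies inside the annotated gene (chr17:33996012-34000619), so its window and the stretch below are within the gene span. A further listed start of H2-K1 was not used for the members, and the member counts given below may depend on that choice. The other 8 windows end where the gene begins. The stretches below run from an X box core (TGACG) to the next Y box (ATTGG), both in capitals, and are shown because 3 members have the same arrangement. They lie at chr17:34000359-34000388 on the minus strand for H2-K1, chr17:35262993-35263022 on the plus strand for H2-D1 and chr2:122147609-122147638 on the plus strand for B2m.
H2-K1: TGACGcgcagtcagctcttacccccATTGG
H2-D1: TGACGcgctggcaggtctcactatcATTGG
B2m: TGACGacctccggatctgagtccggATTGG
The boxes were 20 bases apart in each. Of 30 positions, 23 were identical between H2-K1 and H2-D1, 13 between H2-K1 and B2m and 12 between H2-D1 and B2m. TGACG followed on the same strand by ATTGG at a distance of 10 to 30 bases was found in 3 of 9 member windows and in 0.642% of 32851 promoter windows. These letters and distances were chosen with the sequences in view.

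The whole windows of H2-D1 (chr17:35262844-35263093, plus strand), B2m (chr2:122147437-122147686, plus strand), Psmb8 (chr17:34197945-34198194, plus strand) and Tap1 (chr17:34187306-34187555, plus strand) show where the motifs lie. Capitals mark every match to the motifs searched, on either strand. H2-D1 and B2m are shown for the interferon and kappaB motifs beside the X and Y boxes, Psmb8 as the member that rose in both models at 1 day, and Tap1 because it shares its window with Psmb9.
H2-D1: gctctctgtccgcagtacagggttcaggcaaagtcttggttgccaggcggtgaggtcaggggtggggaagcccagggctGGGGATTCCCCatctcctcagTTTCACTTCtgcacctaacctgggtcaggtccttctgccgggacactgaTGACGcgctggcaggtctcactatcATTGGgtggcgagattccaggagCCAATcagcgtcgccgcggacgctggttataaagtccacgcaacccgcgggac
B2m: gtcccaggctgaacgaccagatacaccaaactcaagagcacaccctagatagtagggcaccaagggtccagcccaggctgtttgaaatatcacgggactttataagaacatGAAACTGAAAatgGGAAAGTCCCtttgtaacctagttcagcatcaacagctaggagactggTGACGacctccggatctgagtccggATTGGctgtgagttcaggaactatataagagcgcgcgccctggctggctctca
Psmb8: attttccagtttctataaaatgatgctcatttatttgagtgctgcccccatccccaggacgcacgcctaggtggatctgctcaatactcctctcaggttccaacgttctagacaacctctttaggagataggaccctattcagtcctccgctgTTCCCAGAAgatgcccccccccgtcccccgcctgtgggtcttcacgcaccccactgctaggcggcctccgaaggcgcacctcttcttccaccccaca
Tap1: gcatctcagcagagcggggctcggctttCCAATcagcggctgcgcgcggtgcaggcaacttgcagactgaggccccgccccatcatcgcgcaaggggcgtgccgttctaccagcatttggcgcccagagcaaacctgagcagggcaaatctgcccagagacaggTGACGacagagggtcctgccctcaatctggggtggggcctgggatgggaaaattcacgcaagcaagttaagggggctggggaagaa
Tap1 and Psmb9 are read in opposite directions from this region, and their windows share 225 bases. The interferon-stimulated response element core, GAAA and GAAA with any 2 bases between, was in 2 of 9 windows (B2m and H2-T23) and 2.98% of all windows. The shorter form GAANNGAAA was in 2 of 9 (H2-K1 and H2-D1) and 6.31% of all. The gamma-activated sequence TTCNNNGAA was in 1 of 9 (Psmb8) and 7.02% of all. The kappaB consensus was in 3 of 9 (H2-K1, H2-D1 and B2m) and 7.25% of all, and in H2-K1 and H2-D1 its 2 matches overlap. TGACG alone was in 5 of 9 windows and 17.8% of all, and ATTGG alone in 7 of 9 and 33.8% of all. Both include the pairs described above. In Tap1 and Psmb9 these matches are the same bases, so each is counted in both windows. A match is a run of letters in the reference sequence, and binding was not measured.

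The 3 immunoproteasome subunits all rose after LPS. Psmb8, which takes the place of the constitutive subunit Psmb5, had the largest fold of the 9 genes after LPS. It stood at 11.35, 10.72, 10.28, 8.53 and 9.63 (log2 intensity) on the 5 LPS arrays, against 6.34, 5.64, 7.94 and 5.73 on the 4 saline arrays. Even the lowest LPS array lay above saline array 3. Psmb8 thus averaged 10.10 ± 1.08 (SD, n = 5) after LPS and 6.41 ± 1.07 (SD, n = 4) after saline, a 12.9-fold rise (log2 3.69 ± 0.47 SE, adjusted p = 2.03e-05 in limma). Without saline array 3 the log2 fold was 4.20 (adjusted p = 1.94e-06).

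Psmb9, which replaces Psmb6, rose 8.05-fold after LPS (log2 3.01 ± 0.49 SE, adjusted p = 0.00039 in limma). Its levels were 11.48, 9.87, 9.23, 8.08 and 8.76 on LPS arrays, against 6.17, 5.75, 8.29 and 5.67 on saline arrays, so LPS array 4 lay below saline array 3. Psmb10, which replaces Psmb7, rose 3.61-fold (log2 1.85 ± 0.29 SE, adjusted p = 0.000222 in limma), at 11.68, 11.22, 10.76, 9.90 and 10.36 on LPS arrays and 9.27, 9.04, 9.17 and 8.26 on saline arrays. For Psmb10 saline array 3 lay among the other saline arrays, and the groups did not overlap. Without that array the log2 folds were 3.62 for Psmb9 and 1.93 for Psmb10, both still called. With the 9 LPS and saline arrays fitted alone, Psmb8 kept its call (adjusted p = 0.019), while Psmb9 (0.134), Psmb10 (0.0666), Tapbp (0.115), B2m (0.151) and Tap2 (0.374) did not (adjusted p in parentheses).

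After stroke Psmb8 was the member with the clearest difference. At 1 day its levels were 6.97, 6.86, 7.34, 7.60 and 7.84 on the 5 MCAO arrays and 5.75, 5.75, 5.95 and 5.73 on the 4 sham arrays. The 2 groups lay almost a log2 unit apart at their closest, and Psmb8 rose 2.87-fold (log2 1.52 ± 0.47 SE, adjusted p = 0.0319 in limma). The call was a narrow one. It ended in 6 of 9 cases when 1 array was left out: MCAO array 3, 4 or 5 or sham array 1, 2 or 4 (adjusted p of 0.0535 to 0.0792, log2 fold of 1.39 to 1.52). The sample descriptions carry numbers, and the same numbers occur on 4 MCAO and 4 sham arrays. The labels do not say that these mark pairs. They were taken as a replicate block from correlations in these data. With this replicate block and the variance of all 30 arrays, the log2 fold was 1.61 and the call was lost (adjusted p = 0.068). With the block and the 9 surgery arrays of that day alone it was 1.61 with adjusted p = 0.000577, and Tap1 (1.16, adjusted p = 0.00276) and Psmb9 (0.84, adjusted p = 0.00437) were called as well.

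Psmb8 stayed apart from sham at the later times without passing the test. At 3 days it stood at 7.83, 9.69 and 7.64 on MCAO arrays and 5.93, 6.25 and 7.40 on sham arrays (log2 1.86 ± 0.58 SE, adjusted p = 0.157 in limma). All 3 MCAO arrays lay above all sham arrays, by a small margin over sham array 3. With array 3 of both groups left out, which leaves the dim arrays, the log2 fold was 2.67 (adjusted p = 0.0226). In the bright pair, array 3 of each group, the difference was 0.24. At 7 days it stood at 7.48, 7.45 and 7.38 on MCAO arrays and 6.02, 5.43 and 6 on sham arrays (log2 1.62 ± 0.58 SE, adjusted p = 1 in limma). The SE is pooled over all 8 groups, and with the 6 arrays of day 7 fitted alone adjusted p was 0.00774.

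Psmb9 and Psmb10 had smaller differences after MCAO and were not called. The log2 fold of Psmb9 was 0.77 ± 0.49 at 1 day, 1.51 ± 0.60 at 3 days and 0.74 ± 0.60 at 7 days (SE). All MCAO arrays lay above all sham arrays of the same day at each time, at 6.41 to 7.45 against 5.98 to 6.25, at 7.68 to 8.74 against 6.09 to 7.34 and at 6.70 to 7.06 against 6.02 to 6.41. The log2 fold of Psmb10 was 0.37, 0.59 and 0.39 at 1, 3 and 7 days.

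**Figure D3:**
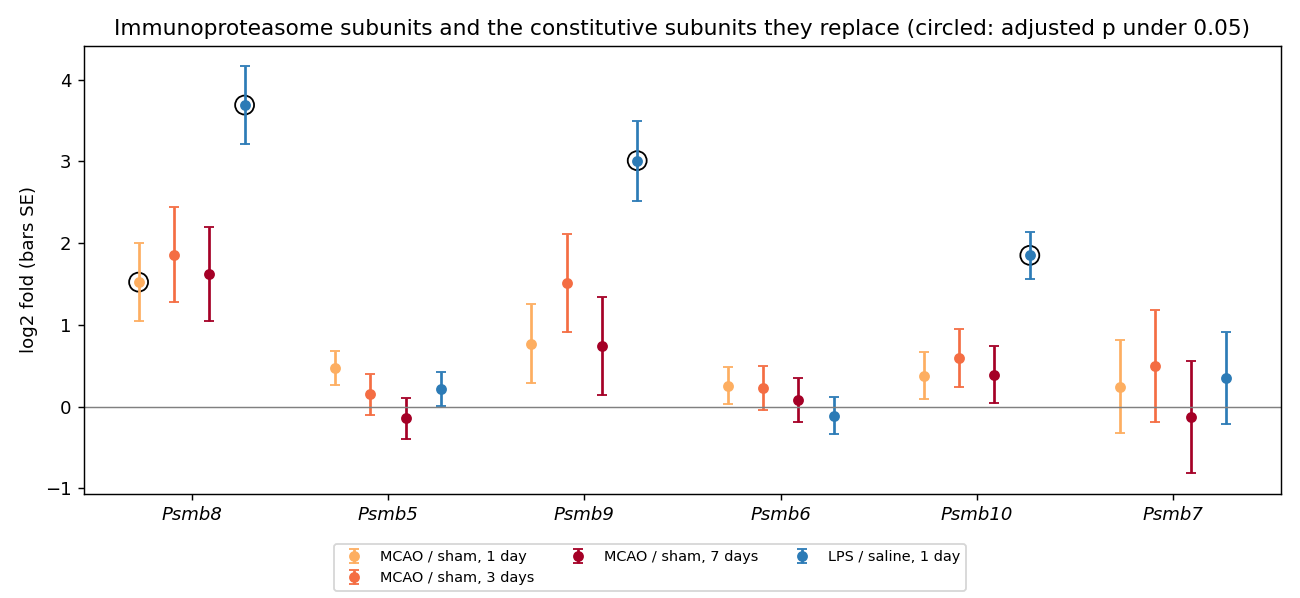
Log2 fold with its SE for each immunoproteasome subunit and, to its right, the constitutive subunit that it replaces, in the 4 comparisons. After LPS Psmb8, Psmb9 and Psmb10 were called (black circles) with log2 folds of 3.69, 3.01 and 1.85, and Psmb5, Psmb6 and Psmb7 had 0.22, -0.11 and 0.35.

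The constitutive subunits were not called in any comparison. After LPS Psmb5 had a log2 fold of 0.22 ± 0.21, Psmb6 -0.11 ± 0.22 and Psmb7 0.35 ± 0.56 (SE). After MCAO at 1 day they had 0.47, 0.26 and 0.25. The difference between an immunoproteasome subunit and its constitutive partner was not tested, since levels of different probe sets are not on a common scale.

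In the transport and loading group Tapbp and Tap2 rose after LPS. Tapbp encodes tapasin, which holds an empty class I molecule at the TAP transporter until peptide is bound. Its levels were 13.44, 12.94, 11.26, 12.88 and 13.21 on LPS arrays and 9.99, 9.11, 11.79 and 10.30 on saline arrays. LPS array 3 was the low one and lay below saline array 3, while the other 4 LPS arrays lay above all saline arrays. Tapbp rose 5.47-fold (log2 2.45 ± 0.39 SE, adjusted p = 0.000281 in limma), and by log2 2.95 without saline array 3. A second Tapbp probe set rose by 1.44 (adjusted p = 0.00217 over all probe sets).

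Tap2, one subunit of the transporter, rose 3.63-fold after LPS (log2 1.86 ± 0.40 SE, adjusted p = 0.00693 in limma). It stood at 12.67, 11.87, 10.03, 10.22 and 10.82 on LPS arrays and 10.31, 8.51, 9.56 and 8.68 on saline arrays, with overlap at saline array 1. Without saline array 3 its log2 fold was 1.96 (adjusted p = 0.012). Tap1, the partner of Tap2 in the transporter, was not called with all arrays (log2 1.48 ± 0.45 SE, adjusted p = 0.0674 in limma). Its levels were 10.58, 8.41, 7.58, 7.91 and 8.84 on LPS arrays and 6.88, 6.11, 8.96 and 6.78 on saline arrays. Saline array 3 lay above 4 of the 5 LPS arrays, and without it Tap1 was called (log2 2.07, adjusted p = 0.00278). Leaving out LPS array 3 or LPS array 4 also gave a call for Tap1 (adjusted p = 0.0197 and 0.0355), and the other 6 arrays did not. A second Tap1 probe set had a log2 fold of 0.31 and was not called.

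After MCAO Tap1 was close to a call at 1 day. It lay between 7.78 and 8.08 on the 5 MCAO arrays and between 6.48 and 7.37 on the 4 sham arrays, without overlap (log2 1.17 ± 0.45 SE, adjusted p = 0.0903 in limma). With the 9 arrays of that comparison fitted alone it was called (adjusted p = 0.000586). At 3 and 7 days its log2 fold was 0.34 and 0.22. A second Tap1 probe set, with a mean of 5.08 over all arrays, had log2 folds of -0.15, -0.14 and 0.14 at 1, 3 and 7 days. Tap2 had log2 folds of 0.54, 0.41 and 0.16 at 1, 3 and 7 days after MCAO and Tapbp 0.15, 0.58 and 0.17, none of them called. The second Tapbp probe set had -0.17, 0.20 and 0.17.

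Among the class I molecules, B2m is the light chain that pairs with class I heavy chains. It rose 4.58-fold after LPS (log2 2.20 ± 0.41 SE, adjusted p = 0.00177 in limma). Levels were 13.32, 12.68, 12.97, 12.07 and 12.40 on LPS arrays and 9.86, 10.43, 12.32 and 9.36 on saline arrays. Saline array 3 was at the level of the LPS arrays and above LPS array 4. Without it the log2 fold was 2.81 (adjusted p = 5.65e-06). A second B2m probe set had a log2 fold of 1.53 and was not called (adjusted p = 0.148 over all probe sets), nor was it without saline array 3 (1.90, adjusted p = 0.0947).

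B2m was not called after MCAO, and its log2 fold was 0.62 ± 0.41 at 1 day, 1.03 ± 0.49 at 3 days and 1.17 ± 0.49 at 7 days (SE). At 7 days the levels were 11.78, 11.58 and 11.70 on MCAO arrays and 10.67, 10.20 and 10.70 on sham arrays, without overlap. Fitted on these 6 arrays alone, B2m was called (adjusted p = 0.0167). At 1 day the lowest MCAO array (11.11) lay below the highest sham array (11.14).

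H2-K1 and H2-D1 encode the classical heavy chains K and D, which hold the peptide. Whether the probes match the alleles these mice carried, in an outbred stock, was not tested, and a level here is that of the RNA the probes bind. On the probe sets with the highest mean neither was called in any comparison, and both varied widely within groups. H2-D1 stood at 10.46, 13.45, 11.40, 8.27 and 10.44 on LPS arrays and 7.58, 8.97, 13.03 and 7.95 on saline arrays (log2 1.42 ± 1.18 SE, adjusted p = 0.593 in limma). Without saline array 3 its log2 fold was 2.63 (adjusted p = 0.266), and without LPS array 2, saline array 1 or saline array 4 it was 0.76, 0.82 and 0.94. At 1 day after MCAO it stood at 11.82, 11.61, 7.90, 8.01 and 10.55, and on sham arrays at 7.10, 10.12, 7.13 and 7.14 (log2 2.10 ± 1.18 SE, adjusted p = 0.307 in limma). Arrays of a single group thus split into high and low ones. The residual SD of both genes (1.66 for H2-K1 and 1.92 for H2-D1, log2) was at the 100th percentile among all genes, and that of the other 7 genes lay between the 74.6th and the 97th.

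The H2-K1 levels moved with those of H2-D1, with Pearson r of 0.96 over the 30 arrays, a description of arrays that share groups. H2-K1 had log2 folds of 1.31 ± 1.02 after LPS, 1.48 ± 1.02 at 1 day after MCAO, 0.94 ± 1.24 at 3 days and 1.60 ± 1.24 at 7 days (SE). After LPS it was 2.30 without saline array 3 (adjusted p = 0.269), 0.81 without LPS array 2 and 0.52 without saline array 1. At 3 days it was 2.36 without sham array 3, 1.64 without MCAO array 1, and 0.21 to 0.25 without MCAO array 3, sham array 1 or sham array 2. At 7 days it was 0.62 without sham array 1, and that of H2-D1 was 1.36. At 7 days both genes lay higher on all MCAO arrays, H2-K1 at 11.09 to 11.38 against 7.69 to 10.71 on sham arrays and H2-D1 at 11.14 to 11.64 against 7.95 to 10.23.

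**Figure D4:**
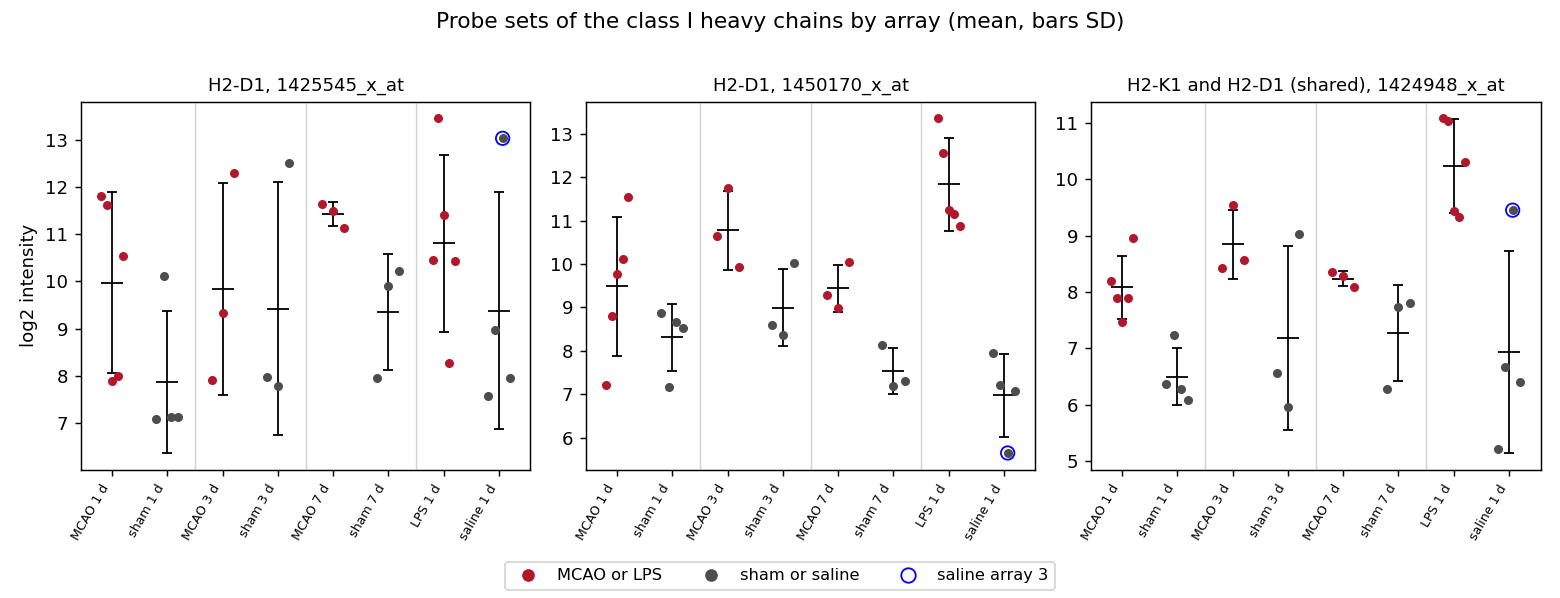
Log2 intensity on each array for the H2-D1 probe set with the highest mean (left), a second H2-D1 probe set (middle) and a probe set shared by H2-K1 and H2-D1 (right), with mean and SD. On the middle one all LPS arrays (10.88 to 13.36) lay above all saline arrays (5.64 to 7.95), and saline array 3 was the lowest saline array there and the highest on the other 2 probe sets.

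Probe sets of the heavy chains gave different answers after LPS. Of 17 probe sets for H2-K1, H2-D1 or H2-T23, alone or shared, 6 rose after LPS, where 2.28% of all probe sets were called. A second H2-D1 probe set stood at 13.36, 12.56, 11.25, 11.16 and 10.88 on LPS arrays and 7.95, 7.22, 5.64 and 7.08 on saline arrays. The groups did not overlap, and its log2 fold was 4.87 (adjusted p = 3.65e-05 over all probe sets), against 1.42 on the H2-D1 probe set with the highest mean. After removal of the group means, these 2 H2-D1 probe sets had an r of -0.28 over 30 arrays. The H2-D1 probe set with the highest mean had an r of 0.98 with a further H2-D1 probe set and also with an H2-K1 probe set.

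The other 5 that rose were the probe set shared by H2-K1 and H2-D1 (log2 3.30, adjusted p = 0.00274), a further H2-K1 probe set (2.25, adjusted p = 0.0195), a pair of dimmer H2-D1 probe sets (1.16 and 1.23), and the probe set shared by H2-T23 and H2-T-ps. All 17 had positive log2 folds, between 0.26 and 5.49. Without saline array 3, 7 were called, 5 of them among the 6. Saline array 3 was the highest saline array on 13 of the 17. In the 3 MCAO comparisons 0 of the 17 were called in limma, with 3, 5 and 2 at an unadjusted p under 0.05 at 1, 3 and 7 days and 16, 16 and 15 positive folds. Of all probe sets 9.5%, 0.378% and 0.0112% were called at these times. Most of these probe sets carry the maker's mark for probes that can match other transcripts, so which heavy chain RNA was bound cannot be told apart.

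H2-T23 encodes a non-classical class I molecule that inhibitory receptors of natural killer cells recognise. The probe set that it shares with H2-T-ps had the largest fold after LPS of any probe set of these genes. Its levels were 13.50, 12.57, 12.12, 11.28 and 12.35 on LPS arrays and 6.39, 5.61, 9.86 and 5.61 on saline arrays. All LPS arrays lay above saline array 3, and the log2 fold was 5.49 (adjusted p = 1.92e-05 in limma) or 6.49 without that array. After MCAO the log2 folds were 0.89, 2.40 and 1.34 at 1, 3 and 7 days, none called. At 3 days all MCAO arrays (9.20, 11.14 and 9.18) lay above all sham arrays (6.89, 6.60 and 8.84), and at 7 days too (7.11 to 7.52 against 5.55 to 6.29). A second shared probe set, with a mean of 5.21 over all arrays, had a log2 fold of 0.60 after LPS and was not called.

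Whether the LPS effect differed from the effect of MCAO at 1 day was tested as a difference of the 2 log2 folds. It was higher after LPS for Tapbp, by log2 2.30 ± 0.55 SE (adjusted p = 0.0308 in limma), so 1 of the 9 genes was called where 1.39% of all genes were, 0.699% higher (219 genes, and 89 to 472 when 1 array was left out). The call for Tapbp ended in 8 of 18 cases when 1 array was left out (adjusted p up to 0.0755): MCAO array 1 or 2, sham array 1, 2 or 4, LPS array 2 and saline array 2 or 4. Psmb9 (2.24 ± 0.69 SE, adjusted p = 0.106), Psmb8 (2.17 ± 0.67 SE, adjusted p = 0.106), B2m (1.58 ± 0.57 SE), Psmb10 (1.48 ± 0.41 SE) and Tap2 (1.32 ± 0.56 SE) were not called. Without saline array 3, B2m (2.19, adjusted p = 0.0145), Psmb8 (2.68, adjusted p = 0.0408), Psmb9 (2.84, adjusted p = 0.0216) and Tapbp (2.80, adjusted p = 0.00275) were called. Tap1 had a difference of 0.31 ± 0.63, H2-K1 of -0.17 ± 1.44 and H2-D1 of -0.68 ± 1.67 (SE). The 95% interval for Tap1 ran between -0.98 and 1.61, which leaves room for either direction.

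The MCAO effect was also compared between days. For 3 against 1 day, 7 against 1 day and 7 against 3 days 0 of 9 genes were called in limma, and 0 had an unadjusted p under 0.05. Of all genes 0.00636% were called for 3 against 1 day (all of them lower, 0.00636%), 0.356% for 7 against 1 day (0.0636% higher) and 0% for 7 against 3 days. The Psmb8 fold differed by 0.34 ± 0.75 between 3 and 1 days, 0.10 ± 0.75 between 7 and 1 days and -0.24 ± 0.82 between 7 and 3 days (SE).

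Within the bright arrays (3 LPS and 2 saline) all 9 log2 folds of LPS were larger than with all arrays, between 2.07 for Psmb10 and 4.79 for Psmb8. Psmb8 alone was called there (adjusted p = 0.0345). Within the dim arrays (2 LPS and 2 saline, one of them saline array 3) 0 of 9 were called in limma. Tapbp had 2.0, Psmb8 2.25, Psmb9 1.44, Psmb10 1.42, Tap2 1.41, B2m 1.40 and Tap1 0.50 there, and H2-K1 and H2-D1 turned to -1.29 and -1.14. Few arrays entered the bright and dim fits. The share of all genes called in them is not given here, so these counts cannot be set against other genes. With the array set as a covariate, 6 genes were called after LPS, as with no covariate.

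Other genes of the pathway were taken from 8 lists with 68 genes, of which 51 were measured. After LPS 7 of the 51 rose and 0 fell, where 3.11% of all genes were called and 2.37% were higher. Tapbpl, a relative of tapasin that edits the bound peptides, rose by log2 2.16 ± 0.23 SE (adjusted p = 1.22e-06 in limma), with LPS arrays at 10.21, 9.47, 8.86, 8.85 and 9.72 and saline arrays at 7.24, 6.85, 8.04 and 6.92. Its groups did not overlap, and its LPS effect was higher than its MCAO effect by 1.86 (adjusted p = 0.00213). Erap1, the peptidase that trims peptides in the endoplasmic reticulum, rose by 1.54, and Psme1, a subunit of the proteasome activator, by 1.41. Irf9 (1.63) and Stat2 (0.91), which join in the complex that carries type I interferon signals to DNA, rose too, as did Hfe (1.34), a class I-like regulator of iron uptake, and the class II gene H2-Aa (0.75).

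Nlrc5, the transactivator of class I genes, had a log2 fold of 2.21 ± 0.66 SE after LPS and was not called (adjusted p = 0.0654 in limma). It stood at 9.36, 7.95, 6.57, 6.41 and 7.21 on LPS arrays and 4.52, 3.91, 8.58 and 4.17 on saline arrays. Saline array 3 was thus high for this gene too, above 4 of the 5 LPS arrays. Irf1, a further interferon-induced activator, had a fold of 1.14 (adjusted p = 0.0831). At 1 day after MCAO the log2 fold of Nlrc5 was 1.46, the highest of the 11 measured transcriptional regulators. Neither Nlrc5 nor Irf1 was called there. The LPS effect exceeded the MCAO effect at 1 day by 0.74 ± 0.93 for Nlrc5 and 0.41 ± 0.51 for Irf1 (SE). Neither difference was called (adjusted p = 0.817 and 0.815 in limma). Nfkb1 and Psme2 had no probe set of their own and are not analysed here.

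At 1 day after MCAO 4 of the 51 rose and 1 fell, where 12.7% of all genes were called, a larger share than among the 51. Irf9 rose by log2 1.16, H2-DMa, which helps to load class II molecules, by 0.80, the NF-kappaB subunit gene Rela by 0.78, and the cytosolic peptidase gene Thop1 by 0.77. Fcgrt, the class I-like receptor for immunoglobulin G, fell by 1.44. At 3 and 7 days 0 of the 51 were called in limma, with 1 and 2 at an unadjusted p under 0.05.

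Markers of other cells moved with some of these groups. At 1 day after MCAO the summed intensity of 6 neutrophil and monocyte markers was 476 to 527, against 378 to 474 in sham arrays, and S100a8 (0.87) and Il1r2 (0.87) rose. Cd68, of the microglia and macrophage list, rose by log2 1.98, while the sum of the 10 markers overlapped (837 to 1498 on MCAO arrays and 726 to 1467 on sham arrays). At that time 1 of 9 endothelial and 1 of 6 pericyte and smooth muscle markers also rose. Of 7 oligodendrocyte markers 1 fell, and of 8 astrocyte markers 1 rose and 1 fell. Of all genes 6.49% were called higher and 6.17% lower at that time, so 1 call in a list this short does not set the list apart. The endothelial sum overlapped (1615 to 9551 on MCAO arrays and 2734 to 9537 on sham arrays). After LPS the T and NK cell marker Gzmb rose by 0.88 and the pericyte marker Rgs5 by 1.98. Of 8 astrocyte markers 1 rose after LPS too, where 2.37% of all genes were called higher. Of the 6 pericyte and smooth muscle markers 4 had positive folds, the lowest fold was -1.20, and their sum was 1758 to 6513 on LPS arrays and 3542 to 5417 on saline arrays. All 6 neutrophil and monocyte markers had positive folds after LPS (median 0.50), 0 of them called in limma and 2 (S100a8 and Il1r2) at an unadjusted p under 0.05, with a sum of 393 to 977 on LPS arrays and 307 to 480 on saline arrays. The sum of 7 T and NK cell markers was 445 to 1119 on LPS arrays and 420 to 735 on saline arrays, with Cd3g under log2 5 on all of them. The sum of 9 endothelial markers was 591 to 1443 on LPS arrays and 469 to 769 on saline arrays. At 3 days the endothelial sum was 928 to 1127 on MCAO arrays and 717 to 886 on sham arrays, and all 7 oligodendrocyte markers had positive folds, with a median of 1.26. Of all markers Tagln, of the pericyte and smooth muscle list, was the one called at 3 days (log2 2.46), where 0.61% of all genes were called higher. At 7 days 0 markers were called in limma (2, Gfap and Tagln, had an unadjusted p under 0.05), and the sums of the pericyte and smooth muscle list (3643 to 4306 on MCAO arrays and 3116 to 3343 on sham arrays) and of 6 neuronal markers (965 to 1290 on MCAO arrays and 807 to 928 on sham arrays) did not overlap. The astrocyte sum did not overlap either (77593 to 84271 on MCAO arrays and 68477 to 74766 on sham arrays). The part of other cells in the class I results was not tested. On saline array 3 the microglial sum was 554 and the T and NK cell sum 735, against 496 to 768 and 420 to 631 on the other saline arrays.

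The 10 genes outside the members whose levels were most like the mean log2 level of the 9 measured members had Pearson r of 0.87 to 0.93 over 30 arrays, a description of arrays that share groups. They were the immunity-related GTPases Iigp1 (0.93), Irgm1 (0.90) and Igtp (0.89), the oligoadenylate synthetase family genes Oasl2 (0.90) and Oas1a (0.89), the complement inhibitor Serping1 (0.90), the guanylate-binding protein Gbp6 (0.89), the non-classical class I gene H2-M3 (0.88), Gm4951 (0.88) and the antiviral GTPase Mx1 (0.87). After removal of the group means their r was between 0.72 and 0.87. Among the members themselves Psmb8 and Psmb9 were most alike (r of 0.97 over 30 arrays), and H2-D1 and Tap2 least (0.16).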

How the data were processed

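The authors deposited 1 intensity per probe set and array, processed with RMA per the submitters' processing notes. The values are whole numbers on a linear scale from 9 to 35553, and log2 was taken. The build behind the array annotation is not given in the sources used here. Raw scanner files were not analysed here, and precision rests on the number of arrays, not on a sequencing depth. Each gene was represented by its probe set with 1 gene symbol and the highest mean, if at log2 5 or more on at least 3 arrays. limma 3.58.1 (R 4.3.3) was fitted with 1 mean for each of the 8 groups and a variance pooled over them, 2-sided. The code was tested on simulated data. All probe sets of the members were tested in a second fit over 35730 probe sets. The members, lists and promoter motifs were chosen with earlier results of these data known.

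Genes named were the members, Psmb5, Psmb6, Psmb7, Irf1 and Nlrc5, up to 3 called genes per pathway list and comparison, and the 10 genes most like the members. One gene of this rule is not reported here. Called marker genes were named after their values were seen. Numbers in the sample descriptions were taken to pair the 1-day surgery arrays, since deviations from group means of same-numbered arrays correlated in all 4 pairs (r of 0.16 to 0.50). MCAO array 1 has no partner. Numbers in the titles gave r down to -0.24 in the 1-day surgery arrays and -0.40 to 0.42 in the LPS and saline arrays. At 3 days the numbers gave r of 0.03 to 0.21, and at 7 days 0.004 to 0.37. The 1 description number that LPS and saline arrays share gave 0.31. These were not taken to mark pairs. Alternatives covered normalisation, filter, probe set choice, variance model, blocks and leaving out arrays. Array sets, the block limited to the 1-day surgery arrays and leaving out pairs of arrays were added after seeing the data. Figures were drawn with matplotlib 3.10.9.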

Additional observations from a re-analysis of the deposited data

Results flagged for a closer look

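In 5 of 36 combinations of a gene with a group of 4 or 5 arrays, an array lay further from the rest than Dixon's 95% limit. Chance gives about 1 in 20 for a single combination, but the 9 genes share arrays, so the 36 are not independent. On sham arrays of day 1, array 2 stood above the others for H2-K1 (10.17, with a gap of 0.933 of the group's range) and H2-D1 (10.12, 0.986). In the same group array 3 stood above the others for Psmb8 (5.95, 0.881) and array 4 for Psmb9 (6.25, 0.833). On LPS arrays, array 3 stood below the others for Tapbp (11.26, 0.743). Saline array 3 did not pass this limit for any of the 9 genes.

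The LPS effect on Tapbp was larger than its MCAO effect at 1 day by log2 2.30 in the test of that difference.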

How the results depend on the processing

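After LPS the 6 calls held when any 1 of the 9 arrays was left out (6 to 7 called) and under the other normalisations and filters tried, and were 7 with Tap1 under the mean of probe sets. They became 3 of the 5 genes left when probe sets with names ending in _x_at, _s_at or _a_at were dropped. The probe sets used for Psmb8, B2m and Tap2 end in _a_at and are annotated to that gene alone. Their loss in this setting therefore does not mean that their probes match other genes. The calls became 1 with the 9 arrays fitted alone and 1 in the bright arrays. In the dim arrays they became 0, and H2-K1 and H2-D1 turned to -1.29 and -1.14. At 1 day after MCAO the 1 call became 0 without these name endings (Psmb8 then has no probe set). It became 2 with array weights and 3 with the arrays fitted alone. It was 0 with the title numbers as a replicate block and 3 with the description numbers as a block in all groups. It was 3 with that block in the 9 surgery arrays alone and 0 with it and all 30 arrays. Leaving out 1 array gave 0 to 1. The blocks changed no call after LPS for the 6 genes, and Tap1 was called with description numbers, of which LPS and saline share 1. At 3 days the 0 calls became 2 (Psmb8 and Psmb9) with array weights or the description block and 1 (Psmb8) without array 3 of both groups, and 0 to 1 without 1 array. At 7 days they became 1 (Psmb8) with array weights and 2 (B2m and Psmb8) with the arrays alone, and stayed at 0 without any 1 array. For the difference of LPS and MCAO effects the 1 call became 5 with array weights, 0 with the arrays alone, 5 with the description block, 2 with the array set as a covariate, 5 without saline array 3 and LPS array 5, and 0 to 4 without 1 array. It was for Psmb10 in place of Tapbp under quantile normalisation and with the title numbers as a block. For 7 against 1 day the arrays alone gave 1 call (Tap1). The cause of these shifts was not tested. Folds that turned sign were small or those of H2-K1 and H2-D1, and none of them was called. With the mean of all probe sets Tapbp had -0.0085 at 1 day and Tap1 -0.0006 at 7 days after MCAO. In the bright pair of day 3 H2-K1 had -0.45, H2-D1 -0.21, Tapbp -0.0838 and Psmb10 -0.0563. The LPS minus MCAO difference of H2-K1 was 0.22 with the mean of probe sets, 0.20 with array weights, 0.16 and 2.79 with title and description blocks and 1.05 without both arrays. That of H2-D1 was 0.60, 0.56 without the probe sets of these name endings, 0.0846 with weights, 1.24 with the description block and 0.62 without both arrays. Without 1 array it ran from -0.96 to 0.82 for H2-K1, -1.43 to 0.53 for H2-D1 and -0.16 to 0.91 for Tap1. Without 1 array H2-D1 ran from -0.81 to 1.96 at 3 days and Tap2 from -0.0805 to 0.35 at 7 days. Over all genes, array weights gave 6161, 1937, 525 and 1660 calls at 1, 3 and 7 days and after LPS, against 1991, 106, 4 and 489, and the compared arrays alone 5180, 0, 205 and 65.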
